A study of Mus musculus with 32 samples.

Results

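The levels of 10 protein-coding genes of mouse chromosome 4, the chromosome that also carries Faah, were followed through 32 liver libraries. They are Tlr12, Il22ra1, Ptpru, Serinc2, Sytl1, Extl1, Ttc39a, Zfp982, Zfp984 and Fbxo44, which is 10 of 55487 genes in the deposited table, 10 of 14903 that were tested and 10 of 928 tested on chromosome 4. They were picked by name for their difference between FAAH S268D and WT mice in these same libraries, so that difference is given here as a description with no test. All 10 passed the filter on low counts. The 4 groups, of 8 libraries each, were FAAH S268D livers on the NASH-AA diet, FAAH S268D livers on the NASH diet, WT livers on NASH-AA and WT livers on NASH. All were fed for 28 weeks, per the series text, on HFFC that contained ARA or lacked it. Diet names here are those of the sample labels, NASH-AA and NASH. The RNA was polyA RNA of whole liver. Strain, sex, age and the making of the FAAH S268D mice are not stated in the labels, and nothing says that the 8 replicates of a group were 8 separate animals, so p-values measure the spread between these libraries, which may be technical.

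Fatty acid amide hydrolase, the product of Faah, is a membrane-bound enzyme that breaks down fatty acid amides such as anandamide and the N-acyl taurines. FAAH S268D is an amino acid substitution in that enzyme. The 10 genes belong to no common pathway. They encode cell surface and endosomal receptors (Tlr12, Il22ra1 and Ptpru), membrane and vesicle proteins (Serinc2 and Sytl1), a glycosyltransferase-like protein (Extl1), a repeat protein linked to lipid handling by its relatives (Ttc39a), zinc finger proteins (Zfp982 and Zfp984) and a subunit of ubiquitin ligases (Fbxo44).

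Total counts per library ran from 3851626 in FAAH S268D NASH replicate 1 to 34370179, with a median of 22896702 and a second lowest total of 14743252. A single count stood for 0.276 CPM (counts scaled to the size and composition of the library) in that shallow library and for as little as 0.0283 CPM in the deepest one. All 16 hepatocyte markers were tested, and their summed level was at least 68133 CPM in every library. Faah itself averaged 180.0 ± 9.5 CPM in FAAH S268D NASH-AA, 186 ± 20.3 CPM in FAAH S268D NASH, 155 ± 7.48 CPM in WT NASH-AA and 153 ± 15.5 CPM in WT NASH (SD, n = 8 each). Averaged over the diets, its log2 fold change was 0.24 ± 0.043 (SE), FAAH S268D over WT, with a limma-voom adjusted p of 0.000447. The level of the transcript does not show the substitution, so it does not check the genotype labels.

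On GRCm38, with positions from GENCODE M21, Faah lies at chr4:115967145-116017926 on the minus strand. Ttc39a, at chr4:109406623-109444745 on the plus strand, is the one gene of the 10 with a lower coordinate, and its start is 6.56 Mb away. The other 9 lie at higher coordinates in 2 stretches. The nearer stretch holds Tlr12 (chr4:128615443-128618619, minus strand), Serinc2 (chr4:130253495-130279205, minus), Ptpru (chr4:131768457-131838288, minus), Sytl1 (chr4:133253090-133263113, minus), Extl1 (chr4:134356372-134383850, minus) and Il22ra1 (chr4:135728172-135752140, plus), with starts 12.65 to 19.76 Mb from that of Faah. The farther stretch holds Zfp982 (chr4:147492417-147513486, plus), Zfp984 (chr4:147753974-147809788, minus) and Fbxo44 (chr4:148152800-148160482, minus), at 31.53 to 32.19 Mb.

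The promoters of 4 of the genes are shown, each as 250 bases before the RefSeq start site and 50 after it. Tlr12 and Serinc2 are shown because they were the genes whose genotypes did not overlap in any library, and Zfp982 and Zfp984 because their levels varied together among FAAH S268D libraries. Sequences are from RefSeq on GRCm38.p6, and all 10 genes were matched by symbol. Capitals mark GGGCGG, the core of GC boxes, and CCAAT or its reverse complement ATTGG, where the 2 overlap as ATTGGGCGG in both zinc finger genes.
Tlr12 (chr4:128618570-128618869, minus strand): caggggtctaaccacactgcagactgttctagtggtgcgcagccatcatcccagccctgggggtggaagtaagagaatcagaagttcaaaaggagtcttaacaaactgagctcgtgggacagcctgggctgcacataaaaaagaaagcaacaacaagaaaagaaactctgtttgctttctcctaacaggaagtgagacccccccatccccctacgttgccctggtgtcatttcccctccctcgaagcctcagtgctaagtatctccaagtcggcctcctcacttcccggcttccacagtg
Serinc2 (chr4:130275537-130275836, minus strand): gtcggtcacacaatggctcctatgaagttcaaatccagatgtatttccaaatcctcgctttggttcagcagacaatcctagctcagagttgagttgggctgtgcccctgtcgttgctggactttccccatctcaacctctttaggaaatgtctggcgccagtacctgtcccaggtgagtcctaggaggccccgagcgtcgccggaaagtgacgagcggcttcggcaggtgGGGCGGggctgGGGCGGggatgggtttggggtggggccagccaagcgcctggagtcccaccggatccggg
Zfp982 (chr4:147492167-147492466, plus strand): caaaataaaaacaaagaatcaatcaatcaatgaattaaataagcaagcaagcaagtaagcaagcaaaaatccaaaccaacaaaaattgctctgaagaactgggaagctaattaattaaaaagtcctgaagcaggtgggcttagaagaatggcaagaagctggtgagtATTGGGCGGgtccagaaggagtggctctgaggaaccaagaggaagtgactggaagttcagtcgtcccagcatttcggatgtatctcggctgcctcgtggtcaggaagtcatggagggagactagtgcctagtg
Zfp984 (chr4:147809739-147810038, minus strand): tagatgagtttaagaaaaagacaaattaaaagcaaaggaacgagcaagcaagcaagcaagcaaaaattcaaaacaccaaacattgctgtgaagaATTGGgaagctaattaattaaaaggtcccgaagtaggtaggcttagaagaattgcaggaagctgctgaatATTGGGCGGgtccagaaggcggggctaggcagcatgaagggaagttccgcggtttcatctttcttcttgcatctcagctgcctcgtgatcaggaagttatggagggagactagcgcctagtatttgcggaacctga
The windows of Zfp982 and Zfp984 had the same base at 236 aligned positions (78.7% of 300), against 53.3% to 62.3% for the other pairs of the 10. In both, CCAAT on the minus strand overlapped GGGCGG, whose first base lay 80 bases before the start site in Zfp982 and 83 before it in Zfp984. GGGCGG, searched on both strands, was found in 5 of the 10 windows (35.7% of 32851 mouse promoter windows held it), CCAAT in 4 (37.4%), TGANTCA in 1, that of Il22ra1 (7.8%), and TATAAA in 0 (13.6%). The Tlr12 window held none of these letters. The RefSeq start lay 3619 bases from the GENCODE gene end in Serinc2, 9024 in Ttc39a and 11303 in Extl1, so those windows lie away from that end. RefSeq held 3 windows each for Serinc2, Zfp982 and Fbxo44, of which the one nearest the GENCODE gene end was used. For each of the other genes it held 1.

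Averaged over the diets, 8 of the 10 genes were lower in FAAH S268D livers than in WT livers and 2, Extl1 and Ttc39a, were higher. In the averaged contrast 17.2% of all genes tested passed an adjusted p of 0.05, and because that contrast chose the 10 genes nothing is read from their count against it. Their absolute log2 differences ranked between the 3rd and the 67th among tested genes of chromosome 4. The libraries of the 2 genotypes did not overlap for 2 genes over both diets, Tlr12 and Serinc2, beside 0.0872% of all tested genes (13 genes, these 2 included). Within the NASH-AA diet 4 of the 10 did not overlap between genotypes, where 0.624% of all tested genes did not, and within the NASH diet 6, where 0.215% did not. The choice of the 10 used these values too, so nothing is read from the counts.

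**Figure D1:**
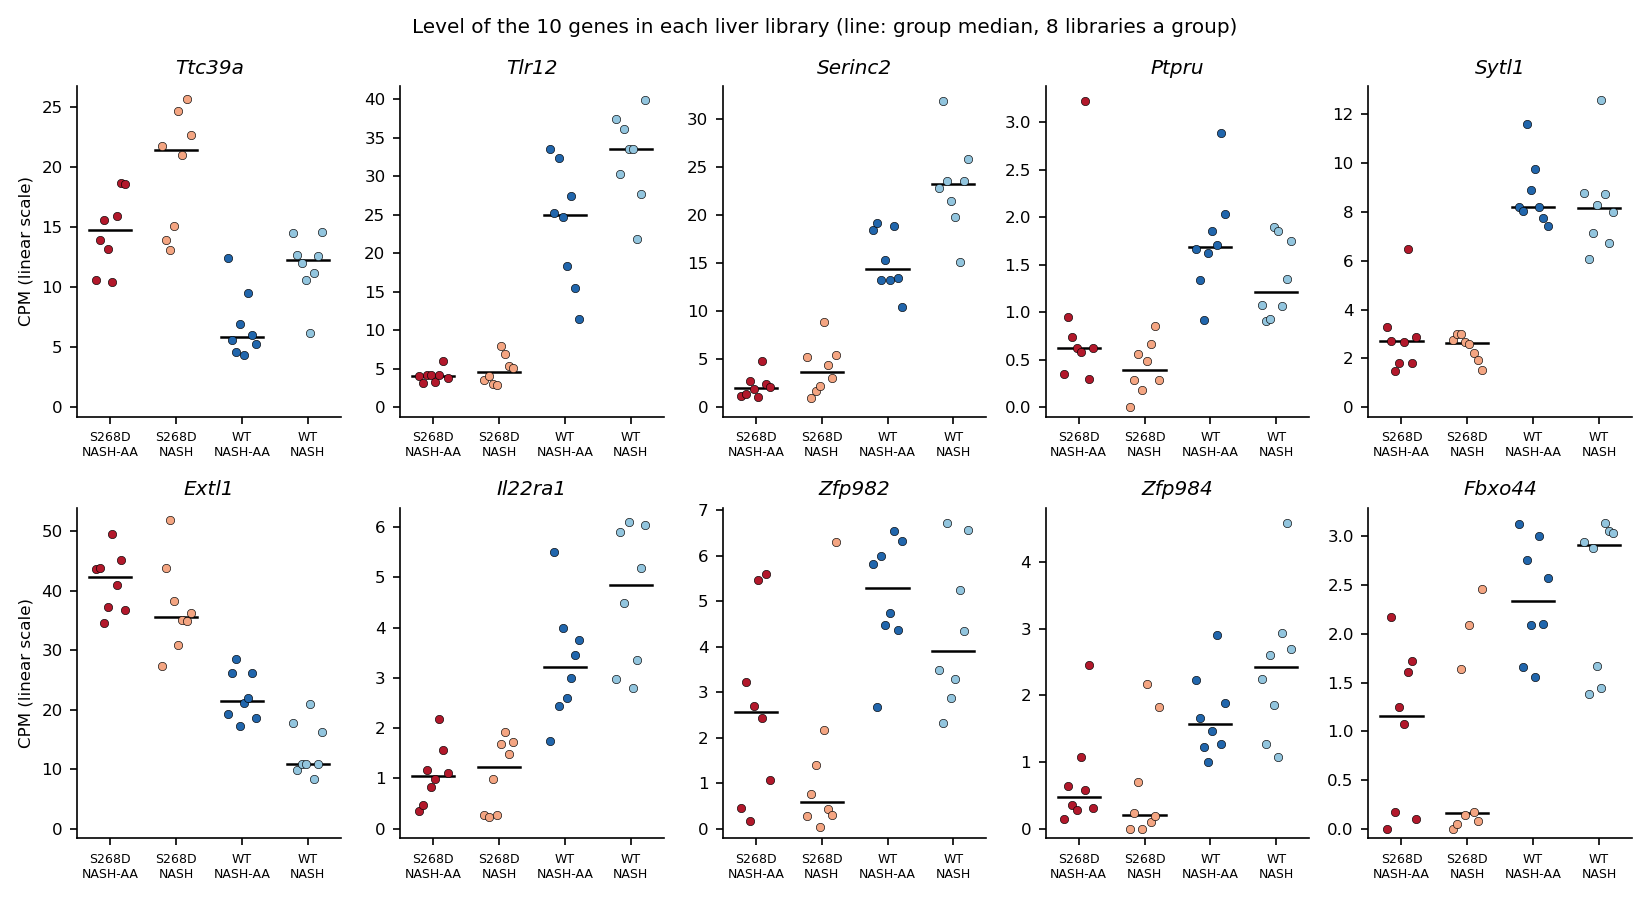
Level of each gene in CPM (linear vertical axis) in every library, with FAAH S268D NASH-AA, FAAH S268D NASH, WT NASH-AA and WT NASH from left to right, 8 libraries each and a line at the group median. Tlr12 and Serinc2 show no overlap of the genotypes, while Zfp982, Zfp984 and Fbxo44 spread in FAAH S268D libraries from near 0 to WT levels.

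Tlr12, an endosomal receptor that in mice senses a profilin of protozoan parasites and acts mainly in dendritic cells and macrophages, separated the genotypes in every library. Its lowest, median and highest values were 3.12, 4.10 and 5.94 CPM in FAAH S268D NASH-AA, 2.89, 4.57 and 8.01 CPM in FAAH S268D NASH, 11.4, 25 and 33.5 CPM in WT NASH-AA, and 21.9, 33.6 and 39.9 CPM in WT NASH. The highest FAAH S268D library thus lay below the lowest WT library, and no library was nearer the other genotype's median. The log2 fold change, FAAH S268D over WT, was -2.45 ± 0.24 on NASH-AA and -2.74 ± 0.23 on NASH (SE), or 5.48-fold and 6.68-fold lower. Per kb of exon, Tlr12 averaged 1.41 ± 0.456 CPM in FAAH S268D libraries and 8.83 ± 2.56 CPM in WT libraries (SD, n = 16 each).

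Il22ra1 encodes the receptor chain that gives liver epithelial cells their response to interleukin-22. It reached 0.347, 1.05 and 2.19 CPM (lowest, median, highest) in FAAH S268D NASH-AA, 0.237, 1.23 and 1.93 CPM in FAAH S268D NASH, 1.75, 3.23 and 5.50 CPM in WT NASH-AA, and 2.80, 4.85 and 6.10 CPM in WT NASH. The genotypes met on NASH-AA, where the highest FAAH S268D library, replicate 6 at 2.19 CPM, lay above the lowest WT library, replicate 1 at 1.75 CPM. On NASH they stayed apart. FAAH S268D libraries were lower by 3.23-fold on NASH-AA (log2 -1.69 ± 0.36, SE) and by 4.69-fold on NASH (log2 -2.23 ± 0.37). The averaged log2 difference of -1.96 ± 0.26 was -2.53 among library numbers 1 to 16 and -1.28 among numbers 17 to 32, each set holding all 4 groups.

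Ptpru, a receptor-type tyrosine phosphatase of the subfamily that binds its own kind between cells, was low in every group. Its lowest, median and highest values were 0.295, 0.624 and 3.22 CPM in FAAH S268D NASH-AA, 0, 0.39 and 0.85 CPM in FAAH S268D NASH, 0.92, 1.68 and 2.89 CPM in WT NASH-AA, and 0.91, 1.22 and 1.90 CPM in WT NASH. The 0 belonged to the shallow library, FAAH S268D NASH replicate 1, where 0 counts allow a level of up to 0.829 CPM (3 counts). One FAAH S268D library, NASH-AA replicate 6, held 66 counts of Ptpru, and at 3.22 CPM it was above all 16 WT libraries. The fold change was log2 -1.28 ± 0.31 on NASH-AA and -1.61 ± 0.37 on NASH (SE), and without that library the averaged value moved to -1.59 ± 0.21, against -1.44 ± 0.24 with it.

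Serinc2, a multipass membrane protein of the family of serine incorporators, had the largest averaged genotype difference of the 10 and was 7.25-fold lower in FAAH S268D livers (log2 -2.86 ± 0.21, SE). The lowest, median and highest libraries had 1.07, 2.03 and 4.78 CPM in FAAH S268D NASH-AA, 0.995, 3.68 and 8.91 CPM in FAAH S268D NASH, 10.4, 14.4 and 19.2 CPM in WT NASH-AA, and 15.1, 23.2 and 31.9 CPM in WT NASH. No library of one genotype reached the range of the other. FAAH S268D NASH replicate 5, the 8.91 CPM library, came closest and was nearer to the WT median on the log2 scale with medians over both diets, though not with medians within the diet. FAAH S268D libraries also varied more around their mean, with a coefficient of variation of 69.7% against 29.4% in WT libraries (n = 16 each, both diets pooled).

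Sytl1, which encodes synaptotagmin-like protein 1, an effector of the vesicle GTPase RAB27, kept a narrow range in most libraries. It had 1.48, 2.69 and 6.49 CPM (lowest, median, highest) in FAAH S268D NASH-AA, 1.54, 2.62 and 3 CPM in FAAH S268D NASH, 7.43, 8.20 and 11.6 CPM in WT NASH-AA, and 6.05, 8.14 and 12.6 CPM in WT NASH. Only FAAH S268D NASH-AA replicate 6, at 6.49 CPM, was above the lowest WT library. Next among the FAAH S268D libraries came 3.27 CPM in NASH-AA replicate 1. The log2 fold change was -1.72 ± 0.19 on NASH-AA and -1.77 ± 0.20 on NASH (SE), and averaged over the diets it was -1.74 ± 0.14, or -1.83 ± 0.12 without replicate 6 of FAAH S268D NASH-AA.

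Extl1, an exostosin-like member of the family that builds heparan sulfate chains, was the more abundant in FAAH S268D livers. It had 34.6, 42.3 and 49.6 CPM (lowest, median, highest) in FAAH S268D NASH-AA, 27.3, 35.6 and 51.8 CPM in FAAH S268D NASH, 17.3, 21.5 and 28.5 CPM in WT NASH-AA, and 8.36, 10.9 and 21 CPM in WT NASH. Within each diet the genotypes did not overlap, and across diets a single pair crossed, the lowest FAAH S268D NASH library (27.3 CPM) and the highest WT NASH-AA library (28.5 CPM). The former was replicate 1, the shallow library, with 99 counts of Extl1. Next lowest among FAAH S268D libraries was NASH replicate 5 at 30.9 CPM, above every WT library. The difference was 1.87-fold on NASH-AA (log2 0.90 ± 0.14, SE) and 2.96-fold on NASH (log2 1.57 ± 0.15).

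Ttc39a encodes a tetratricopeptide repeat protein whose relative TTC39B is known in mice for control of liver X receptor. It had 10.4, 14.7 and 18.7 CPM (lowest, median, highest) in FAAH S268D NASH-AA, 13.1, 21.4 and 25.7 CPM in FAAH S268D NASH, 4.31, 5.83 and 12.4 CPM in WT NASH-AA, and 6.17, 12.3 and 14.6 CPM in WT NASH. The genotypes overlapped on both diets, with 6 FAAH S268D libraries inside the WT range over both diets together. FAAH S268D was higher by 2.25-fold on NASH-AA (log2 1.17 ± 0.21, SE) and by 1.66-fold on NASH (log2 0.73 ± 0.18). The adjacent antisense gene Ttc39aos1, chosen after its values were seen, averaged 3.57 ± 1.01 CPM in FAAH S268D NASH-AA, 3.44 ± 0.829 CPM in FAAH S268D NASH, 0.929 ± 0.314 CPM in WT NASH-AA and 1.38 ± 0.358 CPM in WT NASH (SD, n = 8 each). The sources used here do not give whether the authors counted by strand, although the annotated spans of the pair do not overlap.

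Zfp982 and Zfp984 are zinc finger genes of a large cluster on chromosome 4, in which many members carry a KRAB domain, the part that recruits repressors to DNA. Zfp982 had 0.176, 2.57 and 5.6 CPM (lowest, median, highest) in FAAH S268D NASH-AA, 0.046, 0.59 and 6.31 CPM in FAAH S268D NASH, 2.68, 5.29 and 6.54 CPM in WT NASH-AA, and 2.33, 3.91 and 6.73 CPM in WT NASH. Zfp984 had 0.149, 0.469 and 2.45 CPM in FAAH S268D NASH-AA, 0, 0.211 and 2.17 CPM in FAAH S268D NASH, 0.999, 1.57 and 2.91 CPM in WT NASH-AA, and 1.07, 2.42 and 4.59 CPM in WT NASH. The genotypes overlapped widely for both genes, because FAAH S268D libraries ran from almost no counts up to WT levels. The averaged log2 fold change was -2.10 ± 0.41 for Zfp982 and -2.23 ± 0.39 for Zfp984 (SE). Both values carry a limit from shared sequence. Of the 31-base words in Zfp984 transcripts 68.8% also occur in other genes, 58.1% in Gm13212 alone, and for Zfp982 the share is 29.7%, so counts may have been divided between copies. The Zfp984 column held decimals or restored values in 29 of 32 libraries, and the gene also shares exon sequence on the same strand with the lincRNA Gm20707 (0.308 CPM on average).

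Fbxo44 encodes an F-box protein, the part of an SCF ubiquitin ligase that picks the substrate, and no 31-base word of it occurs in another gene. Its lowest, median and highest values were 0, 1.16 and 2.17 CPM in FAAH S268D NASH-AA, 0, 0.157 and 2.46 CPM in FAAH S268D NASH, 1.56, 2.33 and 3.13 CPM in WT NASH-AA, and 1.38, 2.91 and 3.14 CPM in WT NASH. The zeros were NASH-AA replicate 1 and NASH replicate 1, where 0 counts allow up to 0.149 and 0.829 CPM. Of the FAAH S268D libraries 6 fell inside the WT range, and the others spread below it. The averaged log2 fold change was -2.48 ± 0.46 (SE), the largest error among the 10 genes.

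Single libraries were then compared with their genotype. A library was said to depart at a gene when its log2 CPM was nearer to the median of the 16 libraries of the other genotype than to that of its own. Of 320 pairs of a library and a gene 34 departed, 23 in FAAH S268D libraries and 11 in WT libraries. Fbxo44, Zfp982 and Zfp984 held 18 of them and the other 7 genes 16. In 15 libraries, 7 FAAH S268D and 8 WT, no gene departed. With medians taken within each diet, an alternative chosen after seeing the data, 27 pairs departed, 20 in FAAH S268D and 7 in WT libraries. The counts for single libraries and genes moved as well, and both versions are given where they differ.

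**Figure D2:**
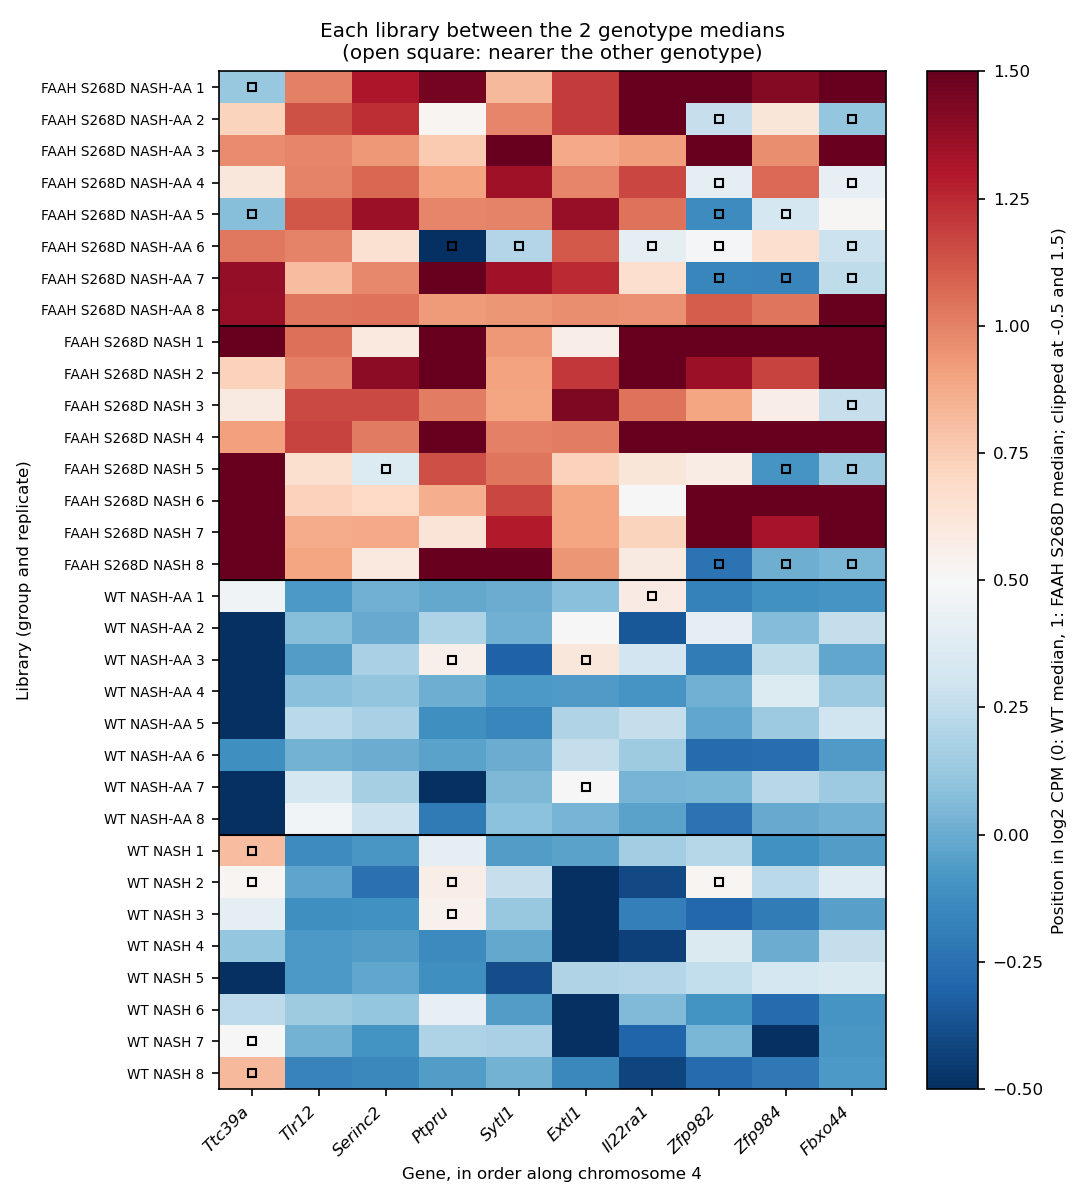
Position of every library (rows, FAAH S268D groups above WT groups) between the genotype medians of each gene (columns, in order along chromosome 4), where 0 is the WT median and 1 the FAAH S268D median in log2 CPM, with values clipped at the ends of the colour scale. Open squares mark the 34 pairs nearer the other genotype, with 5 in FAAH S268D NASH-AA replicate 6 and most of the rest of the FAAH S268D squares at Zfp982, Zfp984 and Fbxo44.

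FAAH S268D NASH-AA replicate 6 departed at 5 genes, the most of any library with medians over both diets. They were Ptpru (3.22 CPM), Sytl1 (6.49 CPM), Il22ra1 (2.19 CPM), Zfp982 (2.44 CPM) and Fbxo44 (1.61 CPM). With medians within each diet it departed at 3, Ptpru, Sytl1 and Il22ra1, as many as FAAH S268D NASH replicates 5 and 8 and NASH-AA replicate 7. It did not depart in either version at Tlr12, Serinc2, Extl1, Ttc39a or Zfp984, and Extl1, which lies between Sytl1 and Il22ra1, was on the FAAH S268D side. Between Tlr12 and Il22ra1, 13 genes passed the threshold with a difference of at least 2-fold, members included, and with medians over both diets this library departed at 7 of them. The 7 were Ptpru, Map3k6, Sytl1, Sfn, Cep85, Ncmap and Il22ra1, while Tlr12, Serinc2, Smpdl3b, Cd52, Extl1 and Stmn1 did not depart there. Cep85, a centrosomal protein gene, had 31.1 CPM in this library, against a median of 15.9 CPM over all 8 FAAH S268D NASH-AA libraries, this one included, and a lowest WT value of 32.4 CPM. FAAH S268D NASH replicate 5 came second with 5 of the 13.

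The 3 genes of the farther stretch varied together over FAAH S268D libraries. Fbxo44 was at or below 0.176 CPM in 8 FAAH S268D libraries, NASH-AA replicates 1, 3 and 8 and NASH replicates 1, 2, 4, 6 and 7. In those 8, Zfp984 was at most 0.353 CPM and Zfp982 at most 1.07 CPM, and none of the 3 genes departed. In the other 8, Fbxo44 was at least 1.07 CPM, and with medians over both diets at least 1 of the 3 genes departed in each of them. With medians within each diet this held for 6 of those 8, and NASH-AA replicates 4 and 6 departed at none of the 3. In both versions all 3 departed in NASH-AA replicate 7 (Zfp982 5.6, Zfp984 2.45 and Fbxo44 1.72 CPM) and in NASH replicate 8 (6.31, 1.83 and 2.46 CPM in the same order). NASH replicate 5 departed at Zfp984 (2.17 CPM) and Fbxo44 (2.09 CPM), and within diets also at Zfp982, and NASH-AA replicate 5 at Zfp982 (5.46 CPM) and Zfp984 (1.07 CPM). In WT libraries, by contrast, Fbxo44 stayed between 1.38 and 3.14 CPM, and 1 library departed at any of the 3 genes, NASH replicate 2 at Zfp982 (2.33 CPM). Within diets it did not, while NASH-AA replicate 2 departed at Zfp982 and NASH-AA replicate 5 at Fbxo44. The 8 FAAH S268D libraries with the least Fbxo44 include the shallow one (3851626 counts), and the next lowest total among them was 21975420, against a lowest total of 14743252 among the other 8. The part of depth in this was not tested.

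Among all other genes, the ones whose levels were most like the mean of Fbxo44, Zfp982 and Zfp984, with group means removed, were Miip (Pearson r = 0.873 over 32 libraries) and Fv1 (r = 0.841). This profile was chosen after the values were seen, and the libraries of FAAH S268D fall into a high and a low set at these genes, so r is given as a measure of likeness only. Miip, an inhibitor of cell migration, and Fv1, a restriction factor against murine retroviruses, start at 147860778 and 147868979 on chromosome 4, between Zfp984 and Fbxo44. Miip had 2.86, 7.73 and 10.4 CPM (lowest, median, highest) in FAAH S268D NASH-AA, 1.61, 4.16 and 11.5 CPM in FAAH S268D NASH, 6.88, 11 and 13.8 CPM in WT NASH-AA, and 6.94, 10 and 13.9 CPM in WT NASH. The 8 FAAH S268D libraries with the least Miip were the same 8 that had the least Fbxo44 (8 of 8 shared), as were those with the least Fv1 and the least Zfp982, while 7 of 8 were shared for Zfp984. The lincRNA Gm47015 on chromosome 10 went the other way (r = -0.806).

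WT departures were fewer, and which libraries they were depended on the medians. With medians over both diets, Ttc39a accounted for 4, all on the NASH diet (replicates 1, 2, 7 and 8), and both FAAH S268D departures of this gene were on NASH-AA. Ttc39a also differed by diet, and with medians within each diet none of these remained. It then departed in FAAH S268D NASH replicates 2, 3 and 4 and in WT NASH-AA replicates 1 and 6. Over both diets Ptpru accounted for 3 WT departures, Extl1 for 2, Il22ra1 for 1 and Zfp982 for 1. WT NASH replicate 2 departed at 3 genes, Ttc39a, Ptpru and Zfp982, the most of a WT library, but at 0 with medians within each diet, where WT NASH-AA replicate 1 had the most at 2 (Il22ra1 and Ttc39a).

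The diets were compared within each genotype, a contrast not used to pick the genes. In WT livers, Extl1 rose and Ttc39a fell on NASH-AA relative to NASH, 2 of the 10 genes, where 4.41% of all tested genes passed. Extl1 averaged 22.4 ± 4.09 CPM in WT NASH-AA and 13.2 ± 4.49 CPM in WT NASH (SD, n = 8 each), a log2 fold change of 0.81 ± 0.15 (SE) with a limma-voom adjusted p of 0.0134. Ttc39a averaged 6.83 ± 2.77 CPM in WT NASH-AA and 11.8 ± 2.67 CPM in WT NASH (SD, n = 8 each), a log2 fold change of -0.84 ± 0.21 with an adjusted p of 0.0283. The groups overlapped for both genes. Extl1 passed with any 1 library left out (largest adjusted p 0.0422), whereas Ttc39a missed the threshold without any 1 of 8 libraries (WT NASH replicates 2, 4, 7 and 8 and WT NASH-AA replicates 3, 5, 7 and 8), with a largest adjusted p of 0.0721. Within library numbers 1 to 16 and 17 to 32 neither gene passed. Extl1 was at 1.02 and 0.66 and Ttc39a at -0.86 and -0.79 on the log2 scale there, in that order of the numbers.

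Tlr12 and Serinc2 came close in WT livers. Tlr12 had a log2 difference of -0.54 ± 0.17, NASH-AA over NASH (SE, adjusted p = 0.0578 by limma-voom), and Serinc2 one of -0.60 ± 0.19 (adjusted p = 0.0576). Leaving out 1 library brought Tlr12 past the threshold in 5 of 32 cases (FAAH S268D NASH replicates 4 and 5, WT NASH-AA replicate 1 and WT NASH replicates 5 and 6, smallest adjusted p 0.0365) and Serinc2 in 6 of 32 (FAAH S268D NASH replicates 1, 2 and 5, WT NASH-AA replicate 2 and WT NASH replicates 5 and 6, smallest adjusted p 0.0309). With sample quality weights both passed (adjusted p = 0.00964 for Tlr12 and 0.00388 for Serinc2), and Serinc2 also passed with the 2 WT groups fitted alone (adjusted p = 0.0261). The other 6 genes had log2 differences between -0.48 and 0.39 with adjusted p between 0.242 and 0.990.

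In FAAH S268D livers 0 of the 10 genes passed for diet, where 0.0939% of all tested genes did, 14 genes. Unadjusted, 1 of the 10 was under 0.05 there, Ttc39a, which averaged 14.6 ± 3.21 CPM in FAAH S268D NASH-AA and 19.8 ± 4.99 CPM in FAAH S268D NASH (SD, n = 8 each, log2 -0.40 ± 0.18, adjusted p = 0.359 by limma-voom). Zfp982 had the largest difference, log2 1.1 ± 0.73, with an adjusted p of 0.56. The diet difference of each genotype was set against that of the other in an interaction term, which passed for 0 of the 10 genes (smallest limma-voom adjusted p 0.906) and for 0% of all genes, while 627 genes had an unadjusted p under 0.05. For Extl1 the interaction was log2 -0.67 ± 0.20 (unadjusted p 0.00265), the one gene of the 10 under 0.05 without adjustment. So the diet response of Extl1 and Ttc39a in WT livers was not shown to differ from that in FAAH S268D livers. The genotype difference may have been one of a single diet when the genes were picked, so the interaction is only partly independent of the choice.

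**Figure D3:**
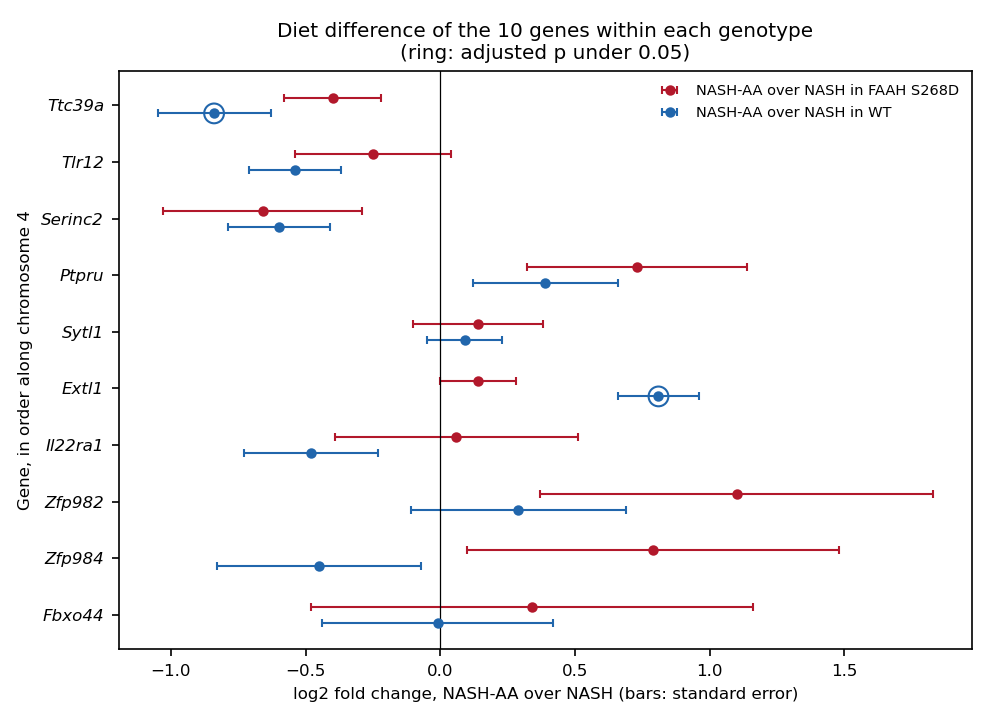
Log2 fold change of NASH-AA over NASH (horizontal axis, bars are the standard error) for each gene in FAAH S268D livers and in WT livers, 8 libraries a group. Rings mark the values with an adjusted p under 0.05, Extl1 at 0.81 and Ttc39a at -0.84, both in WT.

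Over the 10 genes the median diet difference was log2 0.14 in FAAH S268D livers and -0.23 in WT livers, beside 0.005 in each over all genes tested. Tlr12, Serinc2 and Ttc39a had negative values in both genotypes, and Ptpru, Sytl1, Extl1 and Zfp982 positive values in both. These are values and not calls, apart from Extl1 and Ttc39a in WT.

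Genes around the 10 were also examined. Of the 19 tested coding genes nearest to them on either side, 10 passed for the averaged genotype contrast, 4 higher and 6 lower in FAAH S268D livers. In that contrast 17.2% of all tested genes passed, and 23.9% of the tested genes of chromosome 4 outside the 10. The median absolute log2 difference over the 19 was 0.21. The largest was Map3k6, a kinase of stress signalling beside Sytl1, at -1.39 ± 0.21 (SE, limma-voom adjusted p = 4.34e-05). Laptm5, a lysosomal gene of blood cells beside Ptpru, was at -0.75 ± 0.14 (adjusted p = 0.000577), and Nipal3, a magnesium transporter relative beside Il22ra1, at -0.58 ± 0.064 (adjusted p = 1.6e-07). Mecr, a gene of mitochondrial fatty acid synthesis beside Ptpru, was higher at 0.40 ± 0.06 (adjusted p = 5.67e-05). The remaining 9 of the 19 missed the threshold. Among them Tinagl1 and Zcchc17, on either side of Serinc2, were at -0.03 ± 0.065 and 0.04 ± 0.058 (adjusted p = 0.832 and 0.684), and Rnf11, next to Ttc39a, was at 0.00 ± 0.074 (adjusted p = 0.976). For diet, 1 of the 19 passed in WT livers, Pafah2 beside Extl1 (0.27 ± 0.078, adjusted p = 0.0433), and 0 in FAAH S268D livers. Over all tested genes 4.41% passed for diet in WT livers and 0.0939% in FAAH S268D livers.

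With the 10 genes left out, 38% of the 179 tested genes that start 10 to 20 Mb from Faah on chromosome 4 passed for genotype. The share was 21.5% of 172 genes within 10 Mb, 25.8% of 244 at 20 to 40 Mb, 15.8% of 323 beyond 40 Mb and 16.7% of 13956 genes on the other chromosomes, which ranged from 12.9% to 19.5%. Differences of at least 2-fold among genes that passed made up 5.03% of genes at 10 to 20 Mb and 1.15% on other chromosomes. They were 1.74% within 10 Mb, 4.1% at 20 to 40 Mb, the range that holds Zfp982, Zfp984 and Fbxo44, and 4.02% beyond 40 Mb, where most were Mup genes of the major urinary protein cluster. The plot of differences along the chromosome shows both groups.

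**Figure D4:**
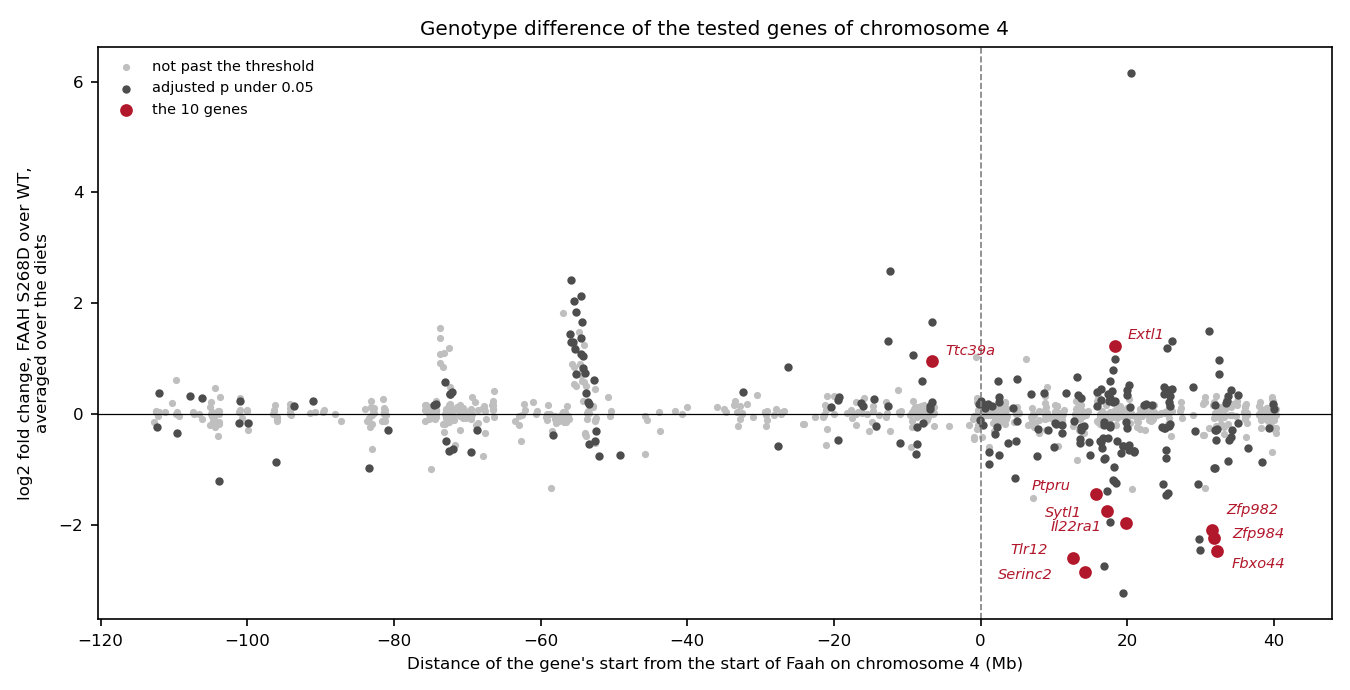
Averaged genotype log2 fold change, FAAH S268D over WT (vertical axis), of the 928 tested genes of chromosome 4 against the distance of their start from that of Faah in Mb (horizontal axis), with the 10 genes in red and other genes past the threshold in dark grey. Besides the 10, 35 genes passed with at least 2-fold, among them the Mup cluster at the left and Htr1d, the highest point at 6.15.

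Over all 32 libraries, the genes most like the mean of the 10, each taken with the sign of its genotype difference, were Gm7125 (r = 0.941), Ndufs5-ps (r = 0.930), Gm6594 (r = 0.929), Htr1d (r = 0.929) and Cep85 (r = -0.908). The genotype difference that chose the 10 enters these values. Htr1d and Cep85 lie on chromosome 4, and the other 3, a lincRNA and 2 processed pseudogenes, on chromosomes 15, 16 and 17. Ndufs5-ps averaged 20.3 ± 2.90 CPM in FAAH S268D NASH-AA, 21.8 ± 4.79 CPM in FAAH S268D NASH, 0.507 ± 0.167 CPM in WT NASH-AA and 0.547 ± 0.313 CPM in WT NASH (SD, n = 8 each). Its lowest FAAH S268D value was 17 CPM, against a highest WT value of 1.1 CPM, and FAAH S268D NASH-AA replicate 6 was at 19.9 CPM. Ndufs5, the gene it is named as a copy of, was looked up after these values were seen. Ndufs5 starts 7.746 Mb from the start of Faah on chromosome 4 and passed as lower in FAAH S268D livers (log2 -0.76). Whether reads of Ndufs5 were counted at Ndufs5-ps was not tested, so the level of Ndufs5-ps may not belong to chromosome 16. The gene was picked for following the labelled genotype, so its levels do not check the label of any library. With group means removed the 5 most alike were Sdhb (r = 0.747), Man2b2 (r = -0.704), Cnbp (r = 0.693), Gtf3c1 (r = -0.692) and Padi2 (r = -0.687), of which Sdhb, a subunit of mitochondrial complex II, and Padi2 are on chromosome 4.

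Relatives of the 10 genes were read from lists of their families and pathways, in the averaged genotype contrast. In the list of Toll-like receptors and their signalling, 12 of 15 tested members were lower in FAAH S268D livers and 0 higher, with a median log2 difference of -0.65, beside 0.005 over all genes tested, of which 17.2% passed in either direction. Tlr8, a sensor of RNA in endosomes, was at -1.06 ± 0.22 (SE, limma-voom adjusted p = 0.00181), Tlr1 at -1.05 ± 0.21 (adjusted p = 0.0013) and Tlr13, which senses bacterial ribosomal RNA in mice, at -0.98 ± 0.20 (adjusted p = 0.00133). Unc93b1, which carries endosomal receptors such as TLR8 and TLR13 to the endosome, was at -0.25 ± 0.065 (adjusted p = 0.00775). Tlr11, the partner of TLR12 in mice, was at -0.38 ± 0.26 with an adjusted p of 0.332, and Tlr3 and Tlr5 also missed. All were smaller differences than the -2.60 ± 0.17 of Tlr12. That gene was picked for its genotype difference, so nothing is read from this order. On NASH-AA in WT livers, Tlr1 (-0.91 ± 0.25, adjusted p = 0.0363) and Tlr9 (-0.92 ± 0.23, adjusted p = 0.0267) fell, 2 of the 15, where 4.41% of all tested genes passed, and 0 rose. The median over the 15 was -0.34 there.

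Markers of monocytes and macrophages moved with this list. For genotype 12 of 17 were lower and 0 higher, with 3 of 7 dendritic cell markers and 4 of 5 tested T and NK cell markers also lower. Of all tested genes 17.2% passed in either direction. Of 11 stellate cell markers 3 were lower. No marker passed among 4 of B cells, 8 of sinusoidal endothelium, 9 tested of cholangiocytes and 3 of erythroid cells. Summed over the 17, levels ran from 375 to 642 CPM in FAAH S268D NASH-AA, 389 to 762 CPM in FAAH S268D NASH, 606 to 846 CPM in WT NASH-AA and 548 to 1445 CPM in WT NASH, and no marker was at 0 in every library. For diet in WT livers, 3 of the 17 fell on NASH-AA (median log2 difference -0.56), as did 3 of 7 dendritic cell markers (median -0.54), and 0 of either rose. Of all tested genes 4.41% passed there. In other lists 2 of 9 tested cholangiocyte markers and 1 of 8 sinusoidal endothelial markers fell, and of 16 hepatocyte markers 3 rose and 1 fell. The part of these cells in the differences of Tlr12 and the other receptors was not tested. In whole liver, fewer cells of a type and less RNA per cell cannot be told apart.

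For the interleukin-22 pathway 5 of 9 tested genes were lower in FAAH S268D livers and 0 higher, with a median log2 difference of -0.52, where 17.2% of all tested genes passed in either direction. In the same contrast 12 of 17 monocyte and macrophage markers were lower and 5 of 16 hepatocyte markers higher, and the part of either in this list was not tested. Il10rb, the second chain of the receptor, was at -0.52 ± 0.095 (limma-voom adjusted p = 0.000577), and Socs3, Lcn2, Saa1 and Saa2, which the pathway induces in liver along with other cytokines, were between -0.83 and -1.36 (adjusted p 0.00896 to 0.0297). Il22 itself had 0 counts in every library. Jak1, Tyk2 and Stat3, which carry the signal, had values of -0.14, -0.07 and -0.15 that missed the threshold. Il10rb also fell on NASH-AA in WT livers (-0.48 ± 0.13, adjusted p = 0.0329).

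Few close relatives of the remaining members passed for genotype, where 17.2% of all tested genes did. Among 4 tested F-box relatives and SCF subunits Fbxo6, the neighbour of Fbxo44, was lower (-0.28 ± 0.095, adjusted p = 0.0423 by limma-voom), and among 2 tested TTC39 genes Ttc39c was higher (0.47 ± 0.16, adjusted p = 0.0402). In the zinc finger cluster 5 of 17 listed genes were tested and 0 passed for genotype. The list left out genes of the same region with other names, given here with their values known. Of those, Gm13212 (log2 -1.26), Gm13244 (-2.26) and Znf41-ps (-2.45) passed and were lower in FAAH S268D livers. Their mean levels were 0.419, 0.533 and 0.422 CPM. 4933438K21Rik (1.49) passed and was higher, while Gm13169, Gm13166, Gm13241, Gm13237 and Gm13233 missed. For diet in WT livers 4.41% of all tested genes passed. Of the cluster Zfp992 (0.67 ± 0.20, adjusted p = 0.048) and Zfp993 (0.86 ± 0.21, adjusted p = 0.0283) rose there on NASH-AA. No gene passed for genotype among 3 tested SERINC genes (Serinc3, Serinc1 and Serinc5 at -0.12, 0.01 and -0.10), 5 synaptotagmin-like genes and RAB27 partners, 5 phosphatase relatives and catenins, 7 genes of heparan sulfate synthesis and 6 partners of KRAB repression. In WT livers on NASH-AA Cdh1, the E-cadherin gene listed with the phosphatases, fell (-1.89 ± 0.39, adjusted p = 0.0175).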

How the data were processed

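A single table of estimated counts for each gene and library, unscaled, was deposited by the authors. In it a spreadsheet had altered many cells, so it was not treated as plain counts and no count model was used. Of 1775584 cells 87.858% were whole numbers. Another 8.77% held 3 decimals and 0.168% held fewer, and these were read at face value. Cells split into groups of digits (2.634%) or turned into clock times (0.57%) were restored by rule. In 3700 cells (0.208%), none of them in the 10 genes, 2 originals were possible. Per the submitters' processing notes, the authors' tools were STAR 2.7.10, UMI-tools 1.1.2 and Trim Galore 0.6.7, with the build GRCm38. How reads were counted, on which annotation and by strand or not is not given in the sources used here. Columns of other samples numbered 0.

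All values were then rounded to whole numbers. Genes that reached, in 8 libraries, a CPM worth 10 counts at median depth, and 15 counts in all, were fitted with limma-voom (limma 3.58.1, R 4.3.3; TMM factors by own code, 30% and 5% trimmed, prior count 0.5), with 1 mean per group over 32 libraries and Benjamini-Hochberg adjustment over all 14903 genes. Counting intervals and floors (3 counts) cover counting error only. GENCODE M21 held 55227 of the 55487 identifiers. The fit was tested on simulated data. The 10 genes and all lists were chosen with earlier results of these data known. Genes named are the 10, Faah, their nearest tested coding neighbours, the 5 most alike genes by each profile, and list members that passed or, failing that, up to 3 of the highest level. The text marks genes picked outside this rule, and the genes past 2-fold from Tlr12 to Il22ra1 were also picked with their values known. Values of 1 gene within that rule are not reported here.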

Additional observations from a re-analysis of the deposited data

Results flagged for a closer look

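In 3 cases a single library stood far from the other 7 of their group by Dixon's test of the gap to the nearest library over the group's range in log2 CPM (at the 95% level), among 44 groups of 8 tested over the 10 genes and Faah. Chance alone marks about 1 group in 20. The ratios are of log2 values and the levels beside them in CPM. WT NASH replicate 5 was lowest for Ttc39a at 6.17 CPM (gap ratio 0.627). FAAH S268D NASH-AA replicate 7 was highest for Tlr12 at 5.94 CPM (0.53), still below every WT library. WT NASH-AA replicate 2 was lowest for Zfp982 at 2.68 CPM (0.543). Taken in CPM, a scale added after seeing the data, 8 groups passed instead, and of the 3 above Tlr12 alone was among them (0.606). FAAH S268D NASH-AA replicate 6 was then highest for Ptpru (0.775), Sytl1 (0.643) and Serinc2 (0.567), FAAH S268D NASH-AA replicate 7 for Zfp984 (0.599), FAAH S268D NASH replicate 8 for Zfp982 (0.661), and WT NASH replicate 5 for Sytl1 (0.585) and Faah (0.555).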

How the results depend on the processing

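The genotype difference of each of the 10 genes kept its sign under every alternative run, and the interaction passed for 0 of them in each. The genes were picked for their genotype difference in these same libraries, so nothing is read from the kept sign. For diet in WT, the 2 genes that passed (Extl1 and Ttc39a) became 1 with a replicate block (Ttc39a at an adjusted p of 0.0584), 4 with sample quality weights (Tlr12 and Serinc2 added), 3 with 2 groups fitted alone (Serinc2 added), 0 in library numbers 1 to 16 and 0 in 17 to 32, and 1 to 4 with 1 library left out. For diet in FAAH S268D, 0 genes became 1 (Ttc39a, adjusted p = 0.0338) with sample quality weights. Over all genes, the count for diet in WT (657) was 182 with no filter, 17 with a replicate block, 370 with a library number block, 3757 with sample quality weights, 247 with limma-trend, 0 and 152 in library numbers 1 to 16 and 17 to 32, 1087 with 2 groups fitted alone, and 65 to 2190 with 1 library left out. The count for diet in FAAH S268D (14) was 6, 8, 1060 and 41 with no filter, the replicate block, quality weights and limma-trend, 0 and 372 in the 2 sets of library numbers, 2 with 2 groups fitted alone and 7 to 368 with 1 library left out. The averaged genotype count (2559) was 793 and 62 in the sets of library numbers, and 1914 to 3319 with 1 library left out. Departing pairs (34) numbered 16 and 18 in those sets. Fewer libraries enter these sets, and the cause of the other changes was not tested. Deviations from group means had a median r of 0.005 between same-numbered libraries of different groups (48 pairs, -0.383 to 0.332). For other numbers it was -0.013 (336 pairs, -0.295 to 0.446). Of these pairs 13 and 70, in that order, had an r over 0.1. The labels do not say what the replicate number stands for, so a pairing by it was neither shown nor excluded. Of 1280 recomputed diet and interaction values 40 changed sign, none of them past the threshold. No value from whole-number cells alone was possible for Zfp984. Depth limits Ptpru, Zfp984 and Fbxo44 most, at 0 counts in up to 2 libraries.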
